A study of Mus musculus with 6 samples.

Results

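The potassium channel genes of the mouse olfactory bulb were the rows of the deposited count table whose symbol starts with Kcn and that held at least 50 transcript molecules over all annotated cells. They numbered 74, of 84 Kcn symbols in the table and 18560 genes in all. The 10 other symbols, such as Kcna3, Kcns1 and Kcnh6, held between 8 and 35 molecules and were not described. The members comprised 32 pore-forming subunits of voltage-gated (Kv) channels, 9 Kv accessory subunits, 10 inward rectifiers and 9 tandem-pore leak channels. The others were 11 subunits of the calcium- and sodium-activated channel family and 3 long noncoding RNAs. Classes were assigned by gene symbol, so a class name, as for Kcnu1 in this family, need not state what opens each channel. Together the members held 139462 of the 87132307 molecules counted in annotated cells.

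Single cells of the whole bulb were profiled in 6 libraries, each from a pool of 3 mice of strain C57BL/6NJ at 14 weeks of age. In 2 libraries the mice were naris occluded, which plugs a nostril and deprives the bulb of odor input. In 2 libraries they were trained on an odor discrimination task, and 2 libraries were controls, with no manipulation according to the labels. The manipulations lasted 6 weeks, and the study's text in one place describes controls as the open side of occluded mice. The replicate number also separated the sex of the pools: Xist, expressed from the inactive X chromosome, had at most 5 molecules in each replicate 1 and at least 20000 in each replicate 2. Each library is 1 pool, so p-values measure the spread between pools, sex included.

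In all, 51426 cells were annotated. The libraries held between 6705 and 10570 annotated cells, 11841160 to 17065083 molecules and median depths of 1028 to 1724 molecules per cell. Members made up 1641 and 1589 molecules per 1000000 counted (CPM) in the controls, 1597 and 1394 CPM after naris occlusion and 1709 and 1678 CPM after training, so naris-occluded replicate 2 was the lowest. Trained replicate 1 had the lowest depth per cell and the highest median share of mitochondrial molecules, 14.4% against 9.25 to 11.6% in the others. The cell names of the trained libraries, 17275 in all, carry the replicate number opposite to the one in the annotation's library column, which was followed here. Of 49931 barcode sequences, 1461 occurred in more than 1 library. Levels are given for 40 clusters of the authors' annotations, 18 of neurons (n01 to n18) and 22 of other cells, by their deposited names. Of 48 defining markers checked, 46 had their highest mean level in a cluster of the type they mark. The exceptions were Calb2, highest in n03-GC-1, and Sox10, highest in OPC. Several of the markers, such as Syt1, Gfap and Mag, are ones the authors used to name clusters, so this is no independent check. Any cluster of a type sufficed: Tpbg, which the study gives for n12-GC-6, was highest in n14-GC-7. Cd52 was counted for monocytes, where the study names it for macrophages. The GABA synthesis genes Gad1 and Gad2 had their lowest levels among the inhibitory clusters in n09-GC-3, at 285 and 46.8 CPM, and Pvalb in n18-EPL-IN stood at 64.0 ± 67.4 CPM. Clusters are abbreviated as the authors did: OSN for olfactory sensory neurons, PGC for periglomerular cells, GC for granule cells, M/TC for mitral and tufted cells, EPL-IN for interneurons of the external plexiform layer, OEC for olfactory ensheathing cells and OPC for oligodendrocyte precursors.

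Potassium channels let potassium leave the cell and so set the resting potential, end action potentials and space them. Kv channels open on depolarization, inward rectifiers pass current mainly near rest, leak channels stay open over a wide range of voltage, and calcium-activated channels follow action potentials. In the bulb, mitral and tufted cells send the odor signal on, periglomerular and granule cells inhibit them, and astrocytes take up the potassium that firing releases. A level in CPM is scaled to all molecules of a cluster in 1 library, and means are given ± SD over n = 6 libraries. Molecules were counted at transcript ends without correction for length, so levels are compared between clusters for 1 gene and not between genes. Clusters had been made from the same cells, so their differences carry no test. Levels in red blood cells, RBCs, are given for comparison. In this lowest cluster all members summed to 230.0 ± 99.9 CPM. Hemoglobin genes Hba-a1 and Hbb-bs made 199183 and 390434 CPM of its molecules and its median depth was 3894 molecules per cell, so the same free RNA would be a smaller share there than in shallower clusters, and these levels set no limit for free RNA elsewhere.

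Members summed to the highest level in n07-GC-2, at 4688 ± 258 CPM, followed by n09-GC-3 at 4343 ± 432 CPM and n18-EPL-IN at 3979 ± 405 CPM. Immature neurons n04 stood at 1129.8 ± 69.9 CPM and sensory neurons n01 at 644 ± 74.6 CPM, so the neuronal clusters ranged widely. Among other cells, Astro1 led with 2197 ± 85.3 CPM, and endothelial cells EC1 were low at 386 ± 40.9 CPM. The classes differed in where they were high. Kv pore subunits summed to 2537 ± 149 CPM in n07-GC-2 and, in n17-M/TC-3, to 2201 ± 313 CPM, against 396 ± 33.0 CPM in Astro1. Inward rectifiers summed to 919 ± 104 CPM in mural cells Mural2, of which Kcnj8 alone made 746 CPM. Leak channels summed to 735 ± 58.6 CPM in Astro2, of which Kcnk2 alone made 645 CPM, and to 555 ± 32.2 CPM in Astro1. The number of members with a mean of at least 50 CPM ran from 0 in RBCs and MicroG3 to 27 in n18-EPL-IN, a cluster of 161 cells. It was 5 in n04 and 25 in n07-GC-2. Among all genes with at least 50 molecules, 455 reached this level in RBCs, 2064 in MicroG3 and 3317 in n18-EPL-IN. In n04 and n07-GC-2 these were 3133 and 3362 genes. Median depth per cell was 882 molecules in n07-GC-2, 1668 in n04 and 1852 in Astro1, so the high share in n07-GC-2 went with shallow cells. Other clusters went the other way. Pooled over libraries, members made 3594 CPM in n12-GC-6 at a median depth of 3533, and 663 CPM in MicroG3 at 748. The part of depth in these sums was not tested.

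**Figure D1:**
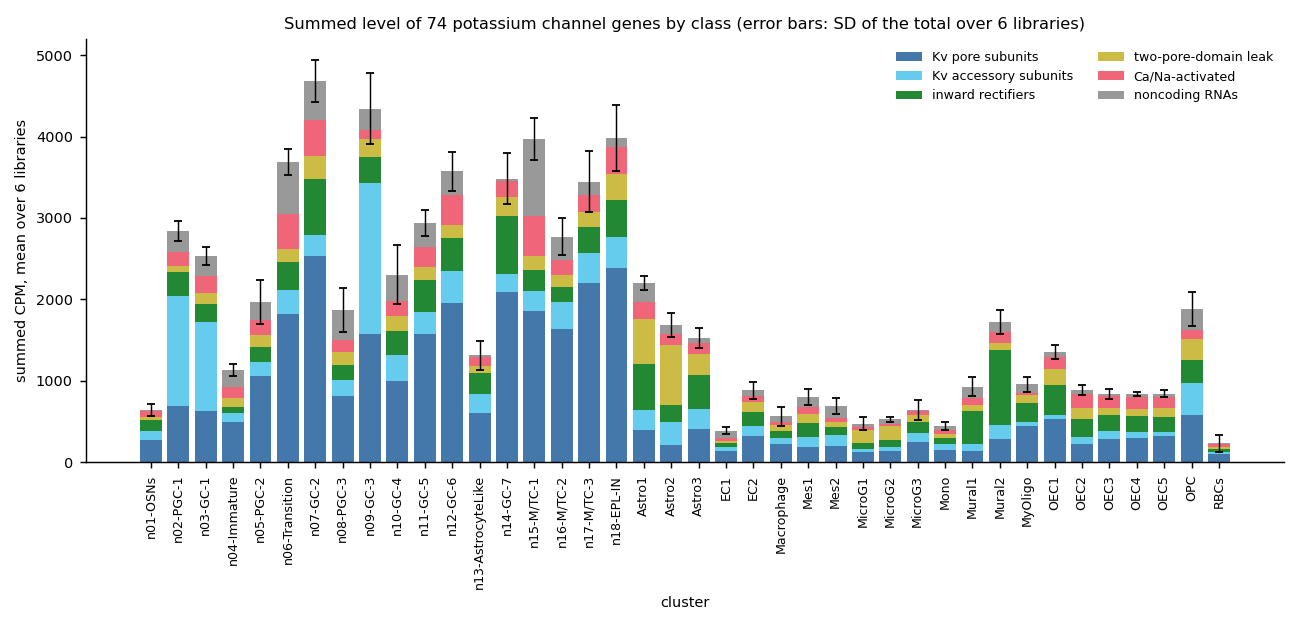
Summed level of the 74 potassium channel genes in each of 40 clusters in CPM, stacked by class, with the SD of the total over 6 libraries as error bars. The bar of n07-GC-2 reaches 4688 CPM and that of RBCs 230.0 CPM, and the make-up of the bars differs between granule cells, astrocytes and mural cells.

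The genes of the A-type Kv channel, which delays firing and opens at low voltage, came apart by cluster. Kcnip2, an accessory subunit that binds these channels and speeds their recovery, had a mean above 100 CPM in 3 of the 40 clusters. In n09-GC-3 it measured 1680.3 and 1579.7 CPM in control replicates 1 and 2, 1730.2 and 1841 CPM in those of naris occlusion and 1453 and 1986 CPM in those of training. In n02-PGC-1 it measured 1141 and 1007 CPM (control), 1209.6 and 1209 CPM (naris occluded) and 1099 and 1134 CPM (trained), and in n03-GC-1 between 815 and 946 CPM. The ranges of the 3 clusters did not overlap, and n09-GC-3 lay above every other cluster in 6 of 6 libraries. The next cluster, n15-M/TC-1, stood at 73.2 ± 61.0 CPM on 12 molecules, n07-GC-2 at 31.8 ± 12.4 CPM and RBCs at 7.79 ± 17.4 CPM.

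Of the A-type pore subunits, Kcnd2 was highest in n09-GC-3, with 507 and 494 CPM in the controls, 489.7 and 482 CPM after naris occlusion and 1019 and 624 CPM after training. Trained replicate 1 stood far above the other libraries, and it is also the library with the most mitochondrial molecules, whose part in this value was not tested. Kcnd2 was lower in the other clusters with Kcnip2, at 66.4 ± 18.9 CPM in n02-PGC-1 and 36.9 ± 12.3 CPM in n03-GC-1, and it was high without Kcnip2 in n14-GC-7 at 390.3 ± 81.5 CPM and n07-GC-2 at 296 ± 27.5 CPM. Kcnd3, the other abundant A-type subunit, showed the reverse order of these 3 clusters. It was highest in n03-GC-1, between 129 and 194 CPM, then in n02-PGC-1 at 120.3 ± 23.6 CPM and n04 at 82.6 ± 5.82 CPM, and it stood at 21.1 ± 14.2 CPM on 8 molecules in n09-GC-3. Kcnd3 in n03-GC-1 exceeded n02-PGC-1 in 5 of 6 libraries, so this order is not beyond the spread. Kcnd1, of the same family, was at most 13.5 CPM in any cluster. Dpp10, an auxiliary protein of the same channels that was counted here as a partner gene without a Kcn symbol, was also highest in n09-GC-3, at 481 ± 127 CPM. Kcnip3, which besides binding A-type channels is known as a calcium-sensing transcriptional repressor, was found in glia: the lowest, median and highest libraries of OPC were 203, 307 and 387 CPM, and those of Astro1 109, 157 and 189 CPM. OPC exceeded all clusters in each of the 6 libraries. Kcnip1 was spread over interneurons, at 63.9 ± 20.9 CPM in n12-GC-6, overlapping n11-GC-5 at 61.3 ± 11.4 CPM.

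Further members shared the n02-PGC-1 and n03-GC-1 pattern of Kcnip2 and Kcnd3. Kcnmb2, an accessory subunit that inactivates BK channels, measured 125 and 138 CPM in control replicates 1 and 2, 139 and 132 CPM in those of naris occlusion and 89.97 and 157 CPM in those of training in n03-GC-1. In n02-PGC-1 it lay between 47.0 and 97.3 CPM, below n03-GC-1 in all 6 libraries, and the next cluster, n01, had a mean of 13.7 CPM. Unlike Kcnip2 it was almost absent from n09-GC-3, with 1 molecule in all. Kcnj12, a strong inward rectifier, lay between 102 and 155 CPM in n02-PGC-1 and 90.9 and 131 CPM in n03-GC-1, which overlap, and among other cells reached 75.4 ± 42.8 CPM in Mural2. The promoters of these 3 genes are shown because their RNA was high in the same clusters. The windows span 250 bases before to 50 after a RefSeq start site in the mouse build GRCm38.p6, and they are written 5′ to 3′ with GC boxes (GGGCGG) and the E-box CAGCTG on either strand in capitals:
Kcnip2, chr19:45816014-45816313, minus strand: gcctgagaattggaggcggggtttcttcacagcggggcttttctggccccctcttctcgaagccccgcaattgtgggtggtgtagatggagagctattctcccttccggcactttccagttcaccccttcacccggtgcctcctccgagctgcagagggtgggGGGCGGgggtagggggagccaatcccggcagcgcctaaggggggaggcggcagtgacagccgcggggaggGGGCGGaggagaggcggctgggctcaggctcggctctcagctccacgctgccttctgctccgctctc
Kcnmb2, chr3:31902453-31902752, plus strand: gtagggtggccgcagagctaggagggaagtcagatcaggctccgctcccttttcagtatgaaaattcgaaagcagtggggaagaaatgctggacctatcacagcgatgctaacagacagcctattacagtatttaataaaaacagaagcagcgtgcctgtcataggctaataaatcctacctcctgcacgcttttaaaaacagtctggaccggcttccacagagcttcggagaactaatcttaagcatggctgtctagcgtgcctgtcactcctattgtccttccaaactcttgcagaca
Kcnj12, chr11:61065554-61065853, plus strand: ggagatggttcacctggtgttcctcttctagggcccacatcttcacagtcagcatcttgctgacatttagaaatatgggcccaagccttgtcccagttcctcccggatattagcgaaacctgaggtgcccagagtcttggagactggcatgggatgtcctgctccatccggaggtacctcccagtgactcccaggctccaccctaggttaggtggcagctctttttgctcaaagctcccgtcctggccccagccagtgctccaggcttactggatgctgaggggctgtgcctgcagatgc

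The Kcnip2 window held 2 GC boxes and was 67.0% G and C, whereas the Kcnmb2 and Kcnj12 windows held none and were 47.7% and 57.0%. None of the 3 windows held the TATA box TATAAA, the cAMP response element TGACGTCA, the homeodomain core TAATTA or the E-box. Over all 32851 RefSeq windows of this length, GGGCGG occurred in 35.7%, CAGCTG in 16.3%, TATAAA in 13.6%, TAATTA in 5.29% and TGACGTCA in 1.79%. Of the members, 54 had an entry, with 76 windows, of which 35 held GGGCGG, 21 CAGCTG, 4 TATAAA and none the homeodomain core or the cAMP response element. A start site used in these cells may lie elsewhere, since only transcript ends were counted.

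Shaker-type genes, whose channels sit in axons and set the firing threshold, differed in the cluster where each was highest. Kcna2 measured 555 and 655 CPM (control), 561 and 464 CPM (naris occluded) and 504 and 594 CPM (trained) in the mitral and tufted cluster n17-M/TC-3, above every other cluster in all 6 libraries. The clusters n18-EPL-IN, at 253 ± 88.2 CPM, and n15-M/TC-1 followed, and outside neurons OEC1 stood at 149.6 ± 23.1 CPM. Kcna1, its common partner in one channel, was instead highest in OEC1, with 233 and 259 CPM in the controls, 287 and 216 CPM after naris occlusion and 162 and 204 CPM after training. The oligodendrocytes MyOligo followed at 145 ± 27.3 CPM, and n17-M/TC-3 held only 10 molecules of Kcna1, with a mean of 8.07 ± 8.18 CPM. Kcna6 was highest in MyOligo at 99.0 ± 15.3 CPM, followed by n09-GC-3 at 67.7 ± 27.1 CPM. Kcna4, which makes an inactivating current, was highest in granule cells, at 193 ± 37.2 CPM in n12-GC-6, higher in 6 of 6 libraries than n07-GC-2 at 132 ± 22.5 CPM. Cntnap2, the axonal protein that clusters Shaker-type channels and a partner gene here, was highest in n17-M/TC-3 at 383 ± 71.4 CPM.

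Fast Shaw-type channels, which allow high firing rates, were highest in projection neurons and some interneurons. Kcnc1 lay between 352 and 638 CPM in n17-M/TC-3 and in n18-EPL-IN between 228 and 492 CPM, ranges that overlap with each other and with both other M/TC clusters. Kcnc2 singled out n18-EPL-IN, between 153 and 509 CPM on 53 molecules, and the dopaminergic n05-PGC-2, with 203 and 163 CPM in control replicates 1 and 2, 240.4 and 218 CPM in those of naris occlusion and 207 and 203 CPM in those of training. All other clusters had means of at most 39.5 CPM for Kcnc2. Levels in n18-EPL-IN, in n15-M/TC-1 and in n16-M/TC-2 rest on 161, 90 and 116 cells and so on few molecules.

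Several ether-a-go-go-type, Shab-type and silent subunits, described next, had high levels in granule cells or the transition cluster n06. Kcnh3, an ether-a-go-go-like gene, measured 191 and 193 CPM (control), 209 and 237 CPM (naris occluded) and 225 and 289.6 CPM (trained) in n07-GC-2, above every other cluster in 6 of 6 libraries. The cluster n06 followed at 129 ± 21.7 CPM. Kcnh7 stood at 293 ± 46.9 CPM in n06, 291 ± 38.9 CPM in n12-GC-6, then 271 ± 33.9 CPM in n07-GC-2, and these do not differ beyond their spread. Kcnb2, which carries the slow delayed rectifier, reached 309 ± 24.0 CPM in n07-GC-2. The granule clusters n12-GC-6 and n11-GC-5 followed, at 271 ± 52.7 CPM and 262 ± 41.5 CPM, and overlapped it. Amigo1, a membrane protein bound to Shab-type channels and a partner gene here, was highest in n14-GC-7 at 144 ± 52.0 CPM. Kcnf1, a silent subunit that works only with Shab-type partners, was high both in n07-GC-2 at 227 ± 19.7 CPM and in n02-PGC-1 at 212 ± 28.5 CPM. Kcnab3, a cytoplasmic subunit of Shaker-type channels, was highest in n12-GC-6, between 154 and 294 CPM. Kcnh4 did not exceed a mean of 10.3 CPM in any cluster.

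Among further Kv pore subunits, Kcnq3, which carries part of the M-current that muscarinic receptors close, was highest in n18-EPL-IN at 106 ± 36.9 CPM and n05-PGC-2 at 89.6 ± 40.0 CPM. Kcnv1, Kcnh1, Kcnq5 and Kcnh5 had their highest means in n07-GC-2, from 26.6 ± 7.28 CPM for Kcnh5 to 65.4 ± 9.51 CPM for Kcnh1, and n07-GC-2 was above all other clusters in 0 of 6 libraries for Kcnv1 and in 3 or 4 for the rest. For Kcnh2 the mitral and tufted clusters overlap, n16-M/TC-2 at 75.8 ± 67.1 CPM, n15-M/TC-1 at 71.6 ± 71.8 CPM and n17-M/TC-3 at 70.1 ± 24.5 CPM. Kcna5 was highest in n16-M/TC-2 at 55.5 ± 39.1 CPM, in 5 of 6 libraries. Kcns2, at 11.2 ± 12.6 CPM in n16-M/TC-2, led in 3 of 6, with n17-M/TC-3 at 8.92 ± 9.22 CPM. In n18-EPL-IN the silent subunit Kcng1 was at 65.4 ± 66.6 CPM and the Shaw-type Kcnc4 at 45.2 ± 28.6 CPM, above all other clusters in 4 and 5 of 6 libraries. The silent subunit Kcng2 in n18-EPL-IN and Kcnh8 in n12-GC-6 led in 2 of 6 each, at 10.8 ± 16.9 CPM and 27.1 ± 13.9 CPM. Outside neurons, Kcng4 was highest in Astro1 at 20.2 ± 6.04 CPM, in 5 of 6 libraries, and Kcnq1, at 9.64 ± 4.14 CPM in EC1, led in 2 of 6. Among accessory subunits, Kcnab2 was at 125 ± 34.1 CPM in n18-EPL-IN and 108 ± 25.4 CPM in n17-M/TC-3, with the first above all other clusters in 4 of 6 libraries. Kcnab1 had no clear highest cluster, with 22.7 ± 35.6 CPM in n18-EPL-IN and 21.4 ± 17.5 CPM in Mural2. For Kcnip4, n16-M/TC-2 at 90.5 ± 57.5 CPM overlapped n10-GC-4 at 74.8 ± 41.8 CPM. Kcne4 was at 76.2 ± 23.3 CPM in Mural2 and overlapped there with Mes2 at 73.0 ± 32.9 CPM, Mural2 being the higher in 3 of 6 libraries, with Mural1 at 29.4 ± 24.4 CPM. Kcne1l was found in astrocytes, with 204 ± 59.6 CPM in Astro2 against 40.3 ± 17.6 CPM in Astro3, above it in all 6 libraries.

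**Figure D2:**
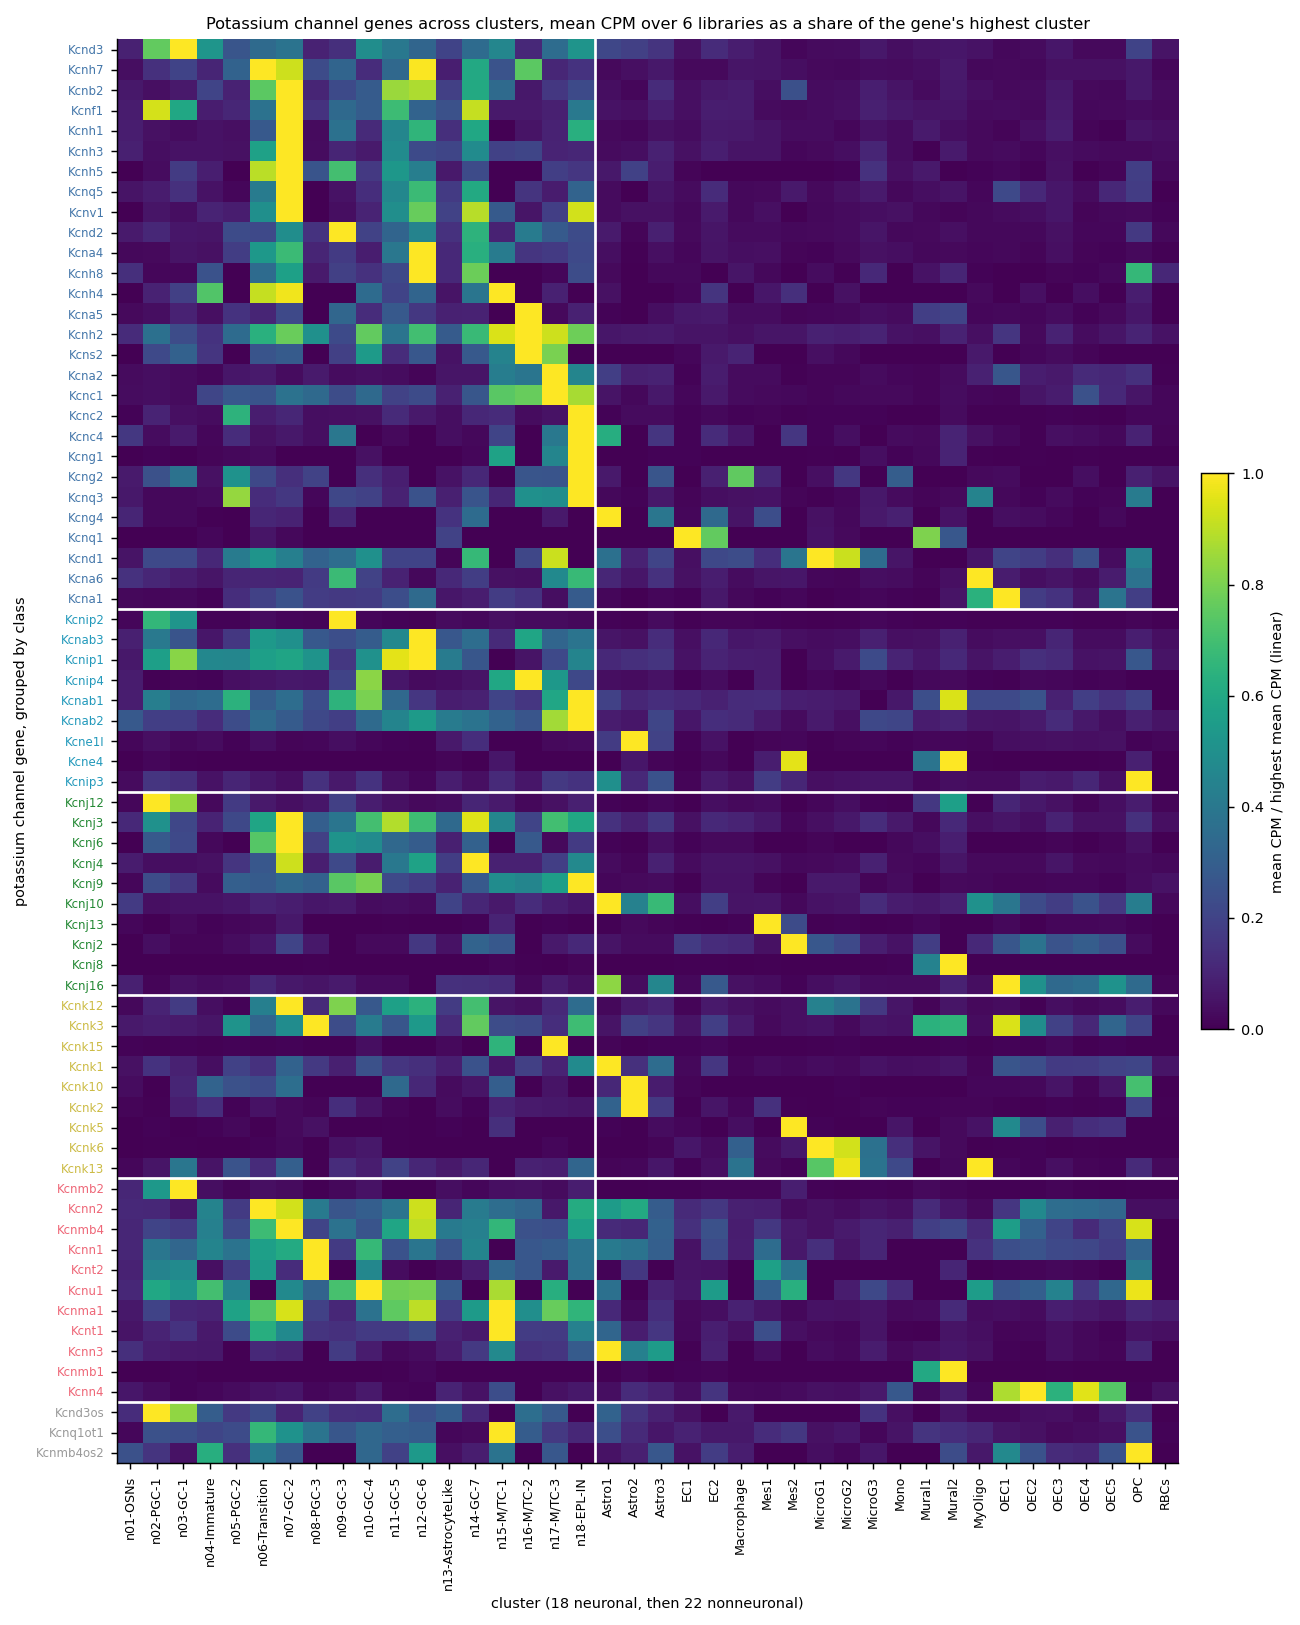
Mean CPM of 70 of the 74 potassium channel genes in 40 clusters, as a share of the gene's highest cluster on a linear scale, with genes grouped by class and neuronal clusters left of the white line. Kcnip2 is bright in n09-GC-3, n02-PGC-1 and n03-GC-1 only, a block of Kv pore subunits is bright in n07-GC-2 and its neighbours, and Kcnj8 and Kcnmb1 are bright in mural cells.

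The cluster with the highest level of an inward rectifier depended on the gene. Kcnj10, through which astrocytes buffer potassium, measured 384 and 397 CPM in the controls, 351 and 395 CPM after naris occlusion and 456 and 394 CPM after training in Astro1. Astro1 was the highest cluster in every library, and Astro3 at 266 ± 32.5 CPM, MyOligo at 200.3 ± 30.2 CPM, Astro2 at 175 ± 62.4 CPM and OPC at 168 ± 32.6 CPM followed, against 9.18 ± 12.3 CPM in RBCs. Its partner subunit Kcnj16 was highest in OEC1 at 152 ± 34.2 CPM and overlapped there with Astro1 at 127 ± 15.5 CPM. Kcnj8, the pore of the vascular ATP-sensitive potassium channel, measured 712 and 825 CPM in control replicates 1 and 2, 769.8 and 819 CPM in those of naris occlusion and 606 and 744 CPM in those of training in Mural2 and between 185 and 528 CPM in Mural1. No other cluster had a mean above 10.97 CPM for Kcnj8. Abcc9, the sulfonylurea receptor that completes this channel, was highest in the same clusters, at 464 ± 43.7 CPM in Mural2 and 330.2 ± 79.3 CPM in Mural1, with EC2 next at 15.0 ± 10.2 CPM. Kcnj8 and Abcc9 are near each other on chromosome 6, and their promoter windows are shown for that reason, with the same capitals:
Kcnj8, chr6:142571565-142571864, minus strand: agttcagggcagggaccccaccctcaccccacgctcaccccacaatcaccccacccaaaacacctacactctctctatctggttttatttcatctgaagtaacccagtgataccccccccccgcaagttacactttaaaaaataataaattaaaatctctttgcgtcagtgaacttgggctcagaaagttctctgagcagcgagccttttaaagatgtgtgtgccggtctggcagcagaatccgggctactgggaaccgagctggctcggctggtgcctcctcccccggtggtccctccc
Abcc9, chr6:142702225-142702524, minus strand: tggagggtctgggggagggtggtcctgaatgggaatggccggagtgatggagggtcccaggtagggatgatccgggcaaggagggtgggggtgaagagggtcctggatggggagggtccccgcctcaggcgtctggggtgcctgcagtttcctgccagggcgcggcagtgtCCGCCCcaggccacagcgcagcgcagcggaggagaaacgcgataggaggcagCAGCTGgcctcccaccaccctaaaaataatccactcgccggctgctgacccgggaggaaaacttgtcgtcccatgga

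The Abcc9 window held 1 GC box, read on the opposite strand as CCGCCC, and 1 CAGCTG, and the Kcnj8 window held none of the letters searched. Among neurons, Kcnj4, a strong rectifier of spiny neurons, was high in granule cells. It lay between 217 and 538 CPM in n14-GC-7, overlapping n07-GC-2 with its range of 305 to 415 CPM, and reached 227 ± 44.9 CPM in n12-GC-6. Kcnj3, a pore subunit opened by G proteins after GABA or other transmitters bind, was highest in n07-GC-2 at 188 ± 21.3 CPM, with its family members Kcnj6 at 35.9 ± 8.11 CPM in the same cluster and Kcnj9 at 100.3 ± 46.2 CPM in n18-EPL-IN. These clusters led in 2 of 6 libraries for Kcnj3, 3 for Kcnj6 and 2 for Kcnj9. The next were n14-GC-7 for Kcnj3 at 178 ± 84.4 CPM and n10-GC-4 for Kcnj9 at 79.6 ± 60.1 CPM. Kcnj2 was highest in the mesenchymal cluster Mes2 at 54.1 ± 13.9 CPM. Kcnj13, a rectifier of epithelia, was highest in Mes1 at 97.8 ± 26.3 CPM, above Mes2 and all other clusters in 6 of 6 libraries.

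Leak channels were high in astrocytes and other glia. Kcnk2, a channel opened by stretch and lipids, measured 738 and 728 CPM (control), 712 and 585 CPM (naris occluded) and 478 and 631 CPM (trained) in Astro2, and then 203 ± 27.3 CPM in Astro1 and 133 ± 35.2 CPM in OPC. Astro2 was above every cluster in each library. Among neuronal clusters the highest means of Kcnk2 were 85.7 ± 42.8 CPM in n09-GC-3, on 32 molecules, and 84.6 ± 5.63 CPM in immature n04, ranges that overlap. Kcnk1 was highest in Astro1 in all 6 libraries, at 341 ± 39.8 CPM, with n18-EPL-IN next at 163 ± 95.6 CPM on 26 molecules. Kcnk3, an acid-sensitive channel, was highest in n08-PGC-3 at 89.8 ± 24.8 CPM, overlapping OEC1 at 84.6 ± 1.85 CPM. Kcnk13, whose channel sets the resting potential of microglia, stood at 75.2 ± 20.5 CPM in MyOligo, 72.9 ± 15.2 CPM in MicroG2 and 55.8 ± 4.14 CPM in MicroG1, which overlap. Kcnk6 was likewise found in MicroG1 at 55.1 ± 16.8 CPM and MicroG2 at 51.5 ± 9.53 CPM. Kcnk12 was highest in n07-GC-2 at 87.5 ± 18.1 CPM. Of the rest, Kcnk15 was detected mainly in n17-M/TC-3 at 80.3 ± 18.1 CPM and n15-M/TC-1 at 52.1 ± 50.4 CPM, Kcnk5 in Mes2 at 44.2 ± 6.12 CPM and Kcnk10 in Astro2 at 17.97 ± 17.5 CPM.

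**Figure D3:**
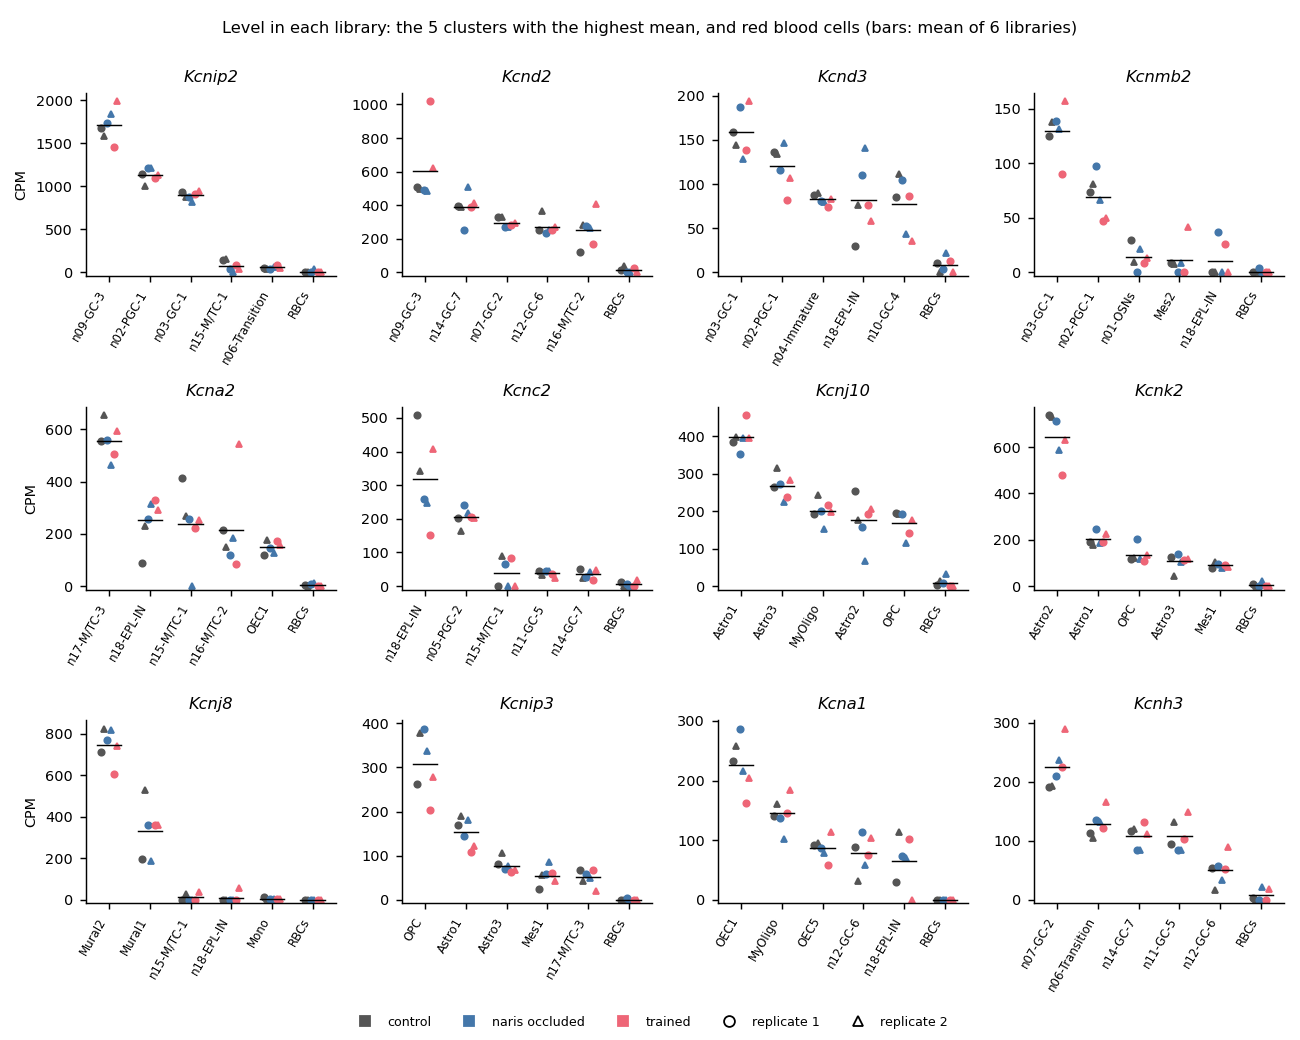
CPM of 12 potassium channel genes in each of 6 libraries, for the 5 clusters with the highest mean and for RBCs, colored by condition, with circles for replicate 1, triangles for replicate 2 and a bar for the mean. For Kcnip2, Kcnk2 and Kcnj8 the first cluster stands above the rest in every library, and Kcnd2 in n09-GC-3 has trained replicate 1 at 1019 CPM.

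Among calcium- and sodium-activated channels, several neighbouring clusters often did not differ beyond their spread. Kcnma1, the BK channel pore, was at 177 ± 70.9 CPM in n15-M/TC-1 on 28 molecules, followed by n07-GC-2 at 166 ± 22.2 CPM and n12-GC-6 at 159 ± 48.4 CPM. Lrrc55, an auxiliary subunit that lets BK channels open at lower calcium and a partner gene here, was highest in n17-M/TC-3 at 342 ± 53.3 CPM. Kcnmb1, the BK subunit of smooth muscle, was found in Mural2 at 64.5 ± 16.9 CPM and Mural1 at 39.0 ± 15.9 CPM, with no other cluster above 1.22 CPM. Kcnmb4 was spread over n07-GC-2 at 61.8 ± 11.6 CPM and OPC at 58.0 ± 17.9 CPM. Of the small-conductance channels, which produce the slow pause after spikes, Kcnn2 was highest in n06 at 110.0 ± 22.1 CPM and n07-GC-2 at 103 ± 9.13 CPM and Kcnn3 in Astro1 at 48.5 ± 9.19 CPM. Kcnn4, the intermediate-conductance channel, was found in ensheathing cells, at 88.9 ± 23.1 CPM in OEC2, 85.1 ± 3.95 CPM in OEC4 and 78.0 ± 13.8 CPM in OEC1, with no order beyond the spread. The sodium-activated Kcnt1 stood at 168 ± 198 CPM in n15-M/TC-1, a mean set by naris-occluded replicate 2 at 566 CPM, and at 105 ± 16.3 CPM in n06. Kcnn1, Kcnt2 and Kcnu1 were at most 16.3 CPM in any cluster, the value of Kcnt2.

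The noncoding RNA Kcnq1ot1, which lies within Kcnq1 on the other strand and silences imprinted genes in cis, held 13578 of the members' molecules. It measured 831 and 747 CPM in the controls, 1059 and 1018 CPM after naris occlusion and 833 and 1186 CPM after training in n15-M/TC-1, then 629.6 ± 83.7 CPM in n06 and 483 ± 67.6 CPM in n07-GC-2. Kcnd3os was highest in n02-PGC-1 at 17.6 ± 6.19 CPM and n03-GC-1 at 14.7 ± 4.38 CPM, the clusters that also led for Kcnd3, and Kcnmb4os2 in OPC at 13.1 ± 5.48 CPM. For the strand used in counting, a setting is not given in the sources at hand, so reads of these RNAs and of the genes they overlap may not be fully separated.

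Over the 38 clusters of the whole-bulb annotation, of which 16 are neuronal, 46 of 74 members (62.2%) had their highest mean in a neuronal cluster. The share over all 15484 genes with at least 50 molecules was 50.8%. The same cluster was highest in all 6 libraries for 20 members, beside 13.8% of all these genes. It was neuronal for 8 of the 20, beside 29.8% of all genes that met this rule. The tau index, which runs from 0 for a gene with equal levels to 1 for a gene in 1 cluster, had a median of 0.876 for members and 0.743 for all these genes. The genes were not matched for their number of molecules, and the part of sparse counts in this difference was not tested. Over the 40 clusters used above, a neuronal cluster was highest for 26 of 32 Kv pore subunits, 8 of 11 calcium- and sodium-activated subunits, 6 of 9 accessory subunits, 5 of 10 inward rectifiers and 3 of 9 leak channels. Over these 40 clusters, 18 of them neuronal, it was 50 of 74 members, where the share of all genes with at least 50 molecules was 53.5%. Small neuronal clusters weigh in these counts: n18-EPL-IN was highest for 8 members, n15-M/TC-1 for 5, n16-M/TC-2 for 4 and n08-PGC-3 for 3. Each had fewer than 20 cells in some library. Over the 38 clusters, Kcnab1, Kcnc4, Kcnk3, Kcnt2 and Kcnu1 were instead highest outside neurons, and Kcnd1 changed the other way. The highest cluster stood above all others in every library for 15 members, which were Kcna1, Kcna2, Kcnh3, Kcnip2, Kcnip3, Kcne1l, Kcnj8, Kcnj10, Kcnj13, Kcnk1, Kcnk2, Kcnk5, Kcnmb1, Kcnmb2 and Kcnq1ot1. The share of all genes that met this rule over the 40 clusters was not computed, so the count of 15 cannot be set against other genes.

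The study placed adult-born neurons on developmental paths that start from immature neurons n04. One path, the study's axis A, leads to the 8 clusters n02, n03, n05, n08, n10, n11, n12 and n14. The other, axis B, leads to n06, n07 and n09. The study's second clustering, by inferred activity of transcription factors, did not fully match this placement for n09-GC-3 and n14-GC-7. The study also states that n05-PGC-2 and n12-GC-6 cells arise earlier in life and are little replaced in adults. The question was which potassium channel genes differ between immature and later clusters. For each library a log2 ratio of summed cells of the axis to n04 was taken, with 5 CPM added, and a gene was counted when the mean ratio was at least 1 in size with the same sign in all 6 libraries. On axis A, 26 of 74 members (35.1%) were higher than in n04 and 1 was lower, where 9.12% and 3.75% of all genes met the same rule. On axis B, 33 members (44.6%) were higher and 1 lower, where the shares of all genes were 13.6% and 8.18%. The median log2 ratio of members was 0.59 on axis A and 0.86 on axis B, against 0.08 and 0.13 over all genes. The axes share the n04 cells, so their values are given side by side and not compared. Among cells with at least 1000 molecules, 27 and 33 members were higher, beside 9.38% and 12.6% of all genes.

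By class, 12 of 32 Kv pore subunits, 5 of 10 inward rectifiers, 4 of 9 leak channels, 3 of 9 accessory subunits and 2 of 11 calcium- and sodium-activated subunits were higher on axis A. On axis B these were 18, 5, 4, 3 and 2, with 1 noncoding RNA, Kcnq1ot1. The gene with the highest ratio on axis A was Kcnip2, which measured 429.8 and 404 CPM in the controls, 478 and 404 CPM after naris occlusion and 370.1 and 388 CPM after training, where n04 held between 7.25 and 22.2 CPM. Its log2 ratio was 4.42 ± 0.42 (SD, n = 6). Of the 8 clusters, n02-PGC-1 and n03-GC-1 held high levels of Kcnip2, at 1133 ± 76.0 CPM and 893 ± 46.8 CPM, and the other 6 had means of at most 34.3 CPM. Kcnj12, Kcnf1, Kcnab3 and Kcna1 followed with 2.88 ± 0.17, 2.64 ± 0.24, 2.42 ± 0.31 and 2.39 ± 0.43. Kcnj12 was likewise high in n02-PGC-1 at 134 ± 23.3 CPM and n03-GC-1 at 112 ± 14.1 CPM. The next cluster of axis A for it was n05-PGC-2, at 22.8 ± 10.4 CPM. On axis B the highest was Kcnj4, between 229.6 and 298 CPM against 9.06 to 33.8 CPM in n04, a log2 ratio of 3.61 ± 0.62. Kcnh3, Kcnk12, Kcna4 and Kcnip2 followed with 3.55 ± 0.23, 3.19 ± 0.40, 3.15 ± 0.25 and 3.08 ± 0.72. The ratio of Kcnip2 on axis B likewise rests on n09-GC-3 at 1712 ± 189 CPM, against 56.5 ± 18.3 CPM in n06 and 31.8 ± 12.4 CPM in n07-GC-2. For each of these genes on its axis, all 6 libraries of the later clusters lay above all 6 of n04. They were chosen for the largest ratios on their axis, so this separation follows largely from the choice.

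Kcnk2 was the single member lower on both axes. It measured 86.9 and 87.1 CPM in n04 of the controls, 79.5 and 82.3 CPM after naris occlusion and 78.2 and 93.3 CPM after training, against 10.3 to 30.4 CPM on axis A and 19.5 to 39.3 CPM on axis B. The log2 ratios were -1.95 ± 0.56 and -1.54 ± 0.30. The clusters of axis B differed among themselves: Kcnk2 was at 85.7 ± 42.8 CPM in n09-GC-3, which overlaps n04, against 32.0 ± 17.7 CPM in n06 and 17.3 ± 8.07 CPM in n07-GC-2. When the CPM of the clusters were averaged, 0 members were lower on axis B. The next lowest members did not meet the rule: Kcnh4 with -0.89 ± 0.39 and Kcnmb4os2 with -0.82 ± 0.51 on axis A, and Kcnmb4os2 with -0.57 ± 0.49 and Kcnd3 with -0.55 ± 0.19 on axis B. Just inside the threshold on axis A lay Kcnh2 with 1.11 ± 0.25 and Kcnk13 with 1.15 ± 0.40, and outside it Kcnv1 with 0.94 ± 0.39 and Kcnip4 with 0.93 ± 0.32. Some members were higher on 1 axis by the rule and near n04 on the other, such as Kcnmb2 with 2.32 ± 0.43 on axis A and -0.16 ± 0.71 on axis B, and Kcnq1ot1 with 0.32 ± 0.05 and 1.33 ± 0.11. Median depth was 730.0 molecules per cell in n06, 882 in n07-GC-2 and 1668 in n04.

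**Figure D4:**
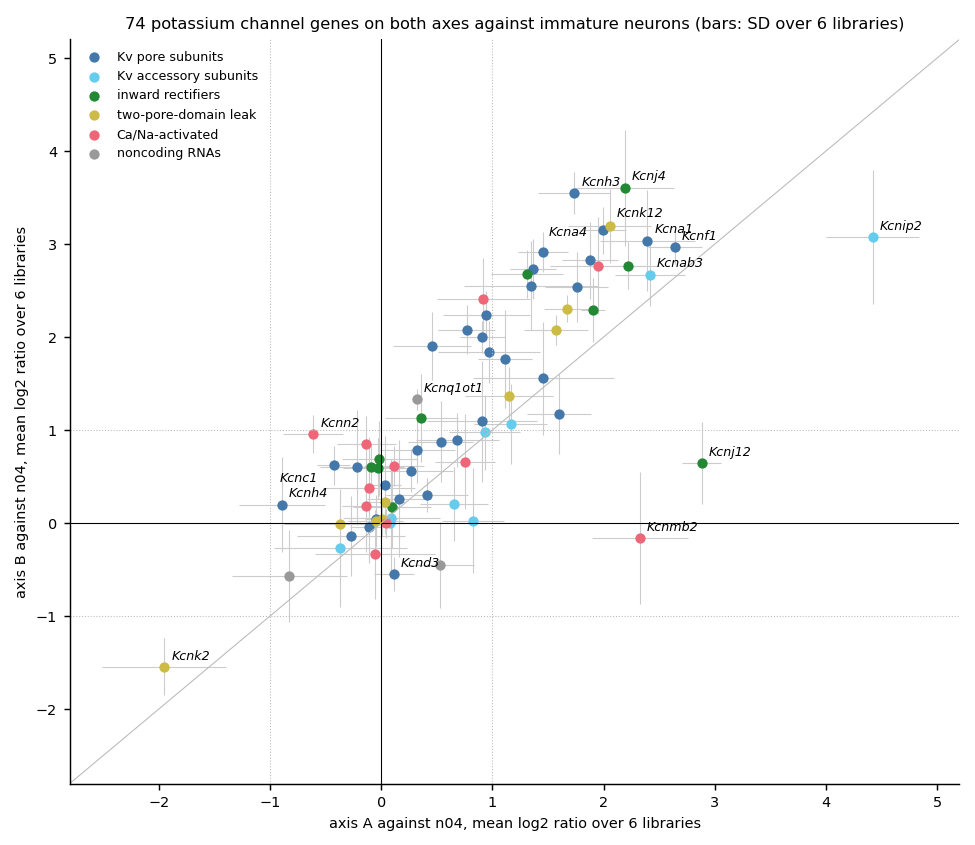
Mean log2 ratio of each of the 74 potassium channel genes to immature neurons n04 on axis A (horizontal) and axis B (vertical), with the SD over 6 libraries as bars, dotted lines at a ratio of 1 in size and the line of equal ratios. Most points lie right of and above 0, Kcnip2 is farthest right at 4.42, and Kcnk2 is the point at the lower left.

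Partner genes without a Kcn symbol, of which 17 were measured, showed their highest level in a neuronal cluster in 12. Over the same clusters, the share of all genes with at least 50 molecules was 53.5%. The difference was not tested. The potassium chloride exporter Slc12a5, whose rise turns GABA inhibitory, measured 652 ± 89.9 CPM in n17-M/TC-3, against 25.4 ± 4.28 CPM in n04, and had log2 ratios of 2.43 ± 0.12 on axis A and 3.30 ± 0.17 on axis B. In all, 7 partners were higher on axis A and 10 on axis B, beside 9.12% and 13.6% of all genes. None was lower, beside 3.75% and 8.18% of all genes. Dpp6 and Dpp10, auxiliary subunits of A-type channels, were among the higher partners on both axes, with ratios of 1.88 ± 0.22 and 2.29 ± 0.29 on axis A.

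The conditions were compared cluster by cluster, on molecules summed per library, in the 34 clusters with at least 20 cells in every library. Potassium channel levels of neurons are known to follow their activity, so the question was whether odor deprivation or training altered members in any cell type. Of 469 pairs of a member and a cluster that passed the filter on low counts, covering 63 of the 74 members, 0 passed an adjusted p of 0.05 by edgeR's quasi-likelihood test in each of the 3 comparisons. DESeq2, run without that filter, gave adjusted p for 2179, 2049 and 2070 member pairs and called 0 in each, with 7, 5 and 12 at an unadjusted p under 0.05. Of all gene and cluster pairs, 0.256%, 0.35% and 0.537% had such a p by DESeq2, far fewer than by edgeR below. DESeq2 could thus call little in this setting, and its 0 calls are no separate evidence that members did not change. Over all genes and clusters, DESeq2 called 24 of 491334, 34 of 465179 and 48 of 469548 pairs that had an adjusted p. By edgeR, 0.0624% of all pairs tested passed for naris occluded against control, 0.0931% for trained against control and 0.178% for trained against naris occluded. At an unadjusted p under 0.05 by edgeR there were 32 member pairs for naris occlusion, 5 higher and 27 lower in the occluded libraries, 36 for training, 16 higher and 20 lower, and 52 for trained against naris occluded, 29 higher and 23 lower. Of all gene and cluster pairs, 4.78% had such a p for naris occlusion, 2.29% higher and 2.49% lower, 5.74% for training, 3.03% higher and 2.71% lower, and 7.26% for trained against naris occluded, 3.84% higher and 3.42% lower. The members' counts and the balance of higher and lower pairs depend on the libraries used. Leaving out a library could change which direction had more pairs in both comparisons with trained libraries, but not for naris occlusion. For naris occlusion, without naris-occluded replicate 1 there were 8 higher and 53 lower of 566 member pairs tested, where 2.53% and 2.95% of all pairs were. Without its replicate 2 there were 14 higher and 16 lower of 571, where 2.36% and 2.91% of all pairs were. For training, there were 27 higher and 24 lower of 590 without trained replicate 2, beside 3.29% and 3.47% of all pairs, and 10 higher and 26 lower of 555 without trained replicate 1, beside 2.74% and 2.92%. For trained against naris occluded, there were 48 higher and 20 lower of 566 without naris-occluded replicate 1, beside 3.78% and 3.39% of all pairs, and 18 higher and 22 lower of 571 without naris-occluded replicate 2, beside 3.67% and 3.09%. In bulk sums of this kind, a change in the make-up of a cluster and a change within its cells cannot be told apart.

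Pairs among the 5 with the smallest p in each comparison are given with their values, in CPM after TMM scaling. For naris occlusion, 3 of the 5 were in the mitral and tufted cluster n17-M/TC-3. Kcnj3 there measured 188 and 226 CPM in the controls, 92.3 and 100.0 CPM after naris occlusion and 114 and 177 CPM after training, with a log2 fold change of -1.10 ± 0.30 (SE) and adjusted p = 0.0960 by edgeR. Kcnc1 there measured 615 and 741 CPM in the controls against 378 and 389 CPM after naris occlusion, and Kcnb2 68.7 and 78.5 against 26.0 and 22.2 CPM. Their adjusted p were 0.109 and 0.161 by edgeR. Chosen for their small p, the 3 genes had both occluded libraries below both control libraries, which follows largely from that choice. The cluster itself differed between these libraries: it held 236 and 175 cells in the controls and 148 and 118 after naris occlusion. Mean depth was 1375 and 1352 molecules per cell in the controls and 2516 and 1679 after occlusion, with medians of 842 and 830.0 against 978 and 826. In the whole-bulb annotation, where Kcnc1 was highest in the neuronal cluster N15 at 557 CPM, N15 held 233 and 177 cells in the controls. After naris occlusion it held 110 and 105 cells. The deeper neuronal cluster N14 held 27 and 33 cells in the controls and 67 and 36 after naris occlusion. How the cells of n17-M/TC-3 divide between N14 and N15 was not computed. The part of cell number, depth and make-up in these values was not tested. Among cells with at least 1000 molecules the log2 fold changes were -1.07 for Kcnj3, -0.86 for Kcnc1 and -1.71 for Kcnb2, with adjusted p of 0.402, 0.283 and 0.357 by edgeR. Kcnb2 in n11-GC-5 measured 318 and 318 against 258 and 204 CPM, with an adjusted p of 0.983 by edgeR. Without naris-occluded replicate 2, Kcnj3 in n17-M/TC-3 passed the test, with an adjusted p of 0.0453 by edgeR, and without naris-occluded replicate 1, Kcnc1 in n05-PGC-2 did, with 0.0202. In these settings the calls over all genes were 337 and 292, against 108 with every library.

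For training the 5 pairs with the smallest p were all outside neurons. Separation of the groups in these pairs likewise follows largely from their choice by p. Kcnn2 in Astro1 measured 49.7 and 42.4 CPM in the controls, 41.5 and 55.3 CPM after naris occlusion and 101 and 77.4 CPM after training. Both trained libraries were above the 4 others, with a log2 fold change of 0.95 ± 0.21 (SE) and adjusted p = 0.0730 by edgeR against control and a log2 fold change of 0.89 ± 0.20 (SE) and adjusted p = 0.0801 against naris occluded. With the replicate number, which stands for the sex of the pool, as a block, the adjusted p by edgeR were 0.0448 and 0.0472, under the threshold. Kcnip3 in Astro1 measured 109.6 and 126 CPM in the trained libraries against 169.7 and 197 CPM in the controls and 146 and 183 CPM after naris occlusion. Its adjusted p was 0.108 by edgeR. Kcnn4 in OEC2 measured 121 and 122 CPM in the trained libraries, above 73.0 and 76.1 CPM in the control libraries, with an adjusted p of 0.200 by edgeR. Kcnip3 in OEC4 measured 21.7 and 24.9 CPM in the trained libraries, below 41.4 and 36.9 CPM in the control libraries, at an adjusted p of 0.563 by edgeR. Kcnk2 in EC2 measured 10.8 and 0 CPM in the trained libraries and 45.5 and 65.9 CPM in the control libraries, at an adjusted p of 0.414 by edgeR. These values rest on 2 and 0 molecules against 11 and 12. Against the naris-occluded libraries, Kcnip3 in OEC3 and OEC1 was also among the 5, with adjusted p of 0.137 and 0.391 by edgeR. Kcnip3 in OEC3 measured 32.7 and 35.6 CPM in the naris-occluded and 11.6 and 7.63 CPM in the trained libraries, and in OEC1 17.2 and 12.2 against 0 and 4.68 CPM. The trained values rest on 7 and 3 molecules in OEC3 and on 0 and 3 in OEC1. Kcnk2 in EC2 stood at 73.3 and 53.8 CPM in the naris-occluded libraries, with an adjusted p of 0.142 by edgeR for training against them. Without trained replicate 2, Kcnn2 and Kcnip3 in Astro1 and Kcnj12 in Mural2 passed against control, with adjusted p of 0.00801, 0.0326 and 0.00806 by edgeR, as did Kcnn2 against naris occluded with 0.00969. In this setting the calls over all genes were 665 and 1244, against 161 and 308 with every library. In that comparison Kcnc1 in n05-PGC-2 passed without naris-occluded replicate 1, with 0.00530. With 2 libraries against 2, an exact permutation test of a single value cannot go below a p of 0.333. Of the partner genes, 171 pairs were tested in each comparison and 0 passed by edgeR, with 16, 5 and 11 at an unadjusted p under 0.05. Hcn2, which encodes a channel opened by hyperpolarization, passed in some alternatives: in MyOligo its adjusted p by edgeR was 0.00249 for naris occlusion without naris-occluded replicate 1 and 0.00442 for training without trained replicate 2, and in Astro1 it was 0.0171 for naris occlusion without the filter on low counts.

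**Figure D5:**
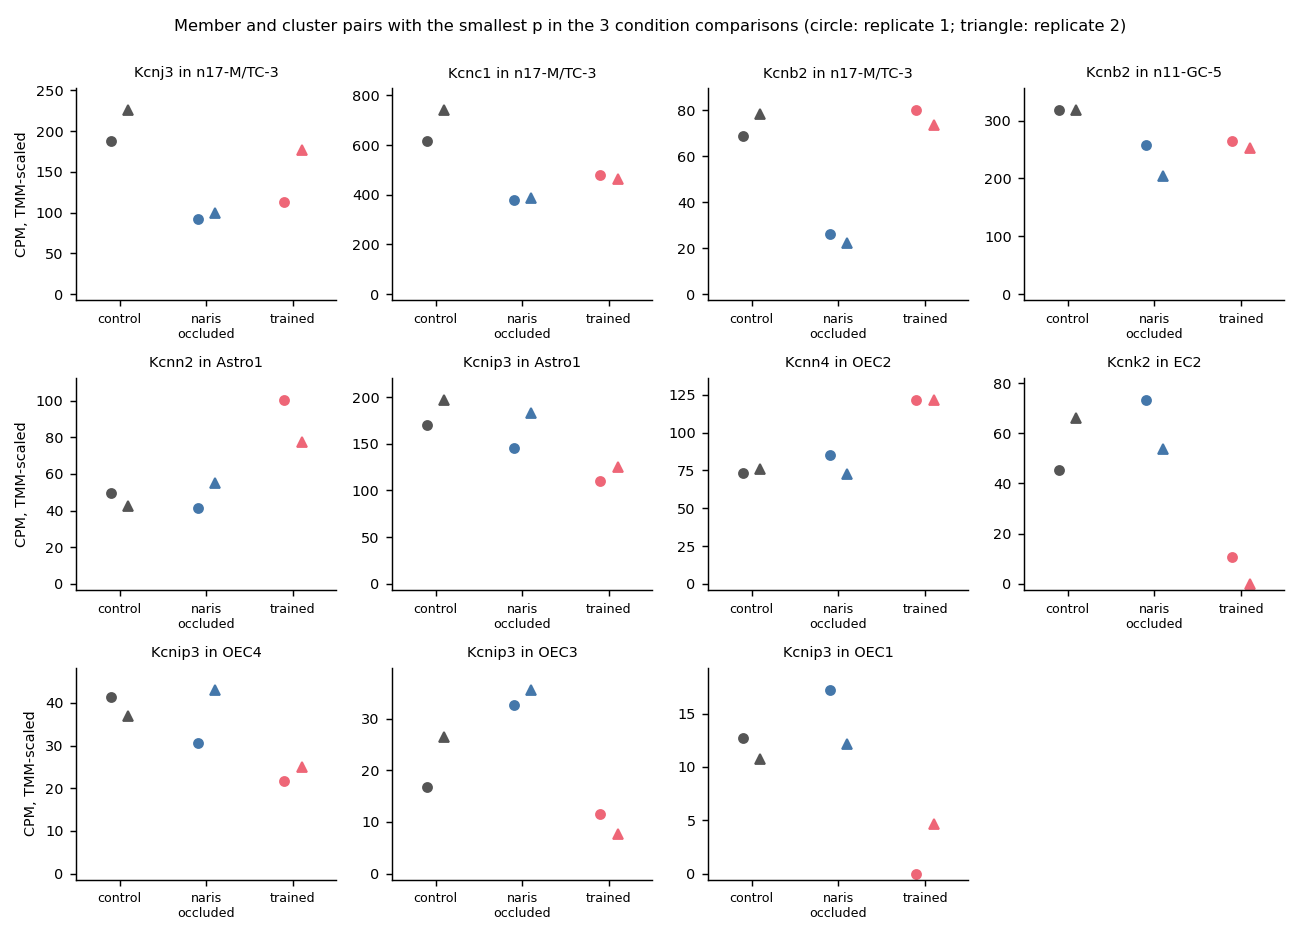
CPM after TMM scaling of 11 distinct member and cluster pairs among those with the smallest p in the 3 condition comparisons, by condition, with a circle for replicate 1 and a triangle for replicate 2. In the 3 panels of n17-M/TC-3 both naris-occluded libraries lie below both control libraries, and Kcnn2 in Astro1 has both trained libraries at 101 and 77.4 CPM above the rest. The pairs were chosen for their small p, so such separation follows largely from the choice.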

How the data were processed

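Single-cell RNA-seq of 6 olfactory bulb libraries (2 control, 2 naris occluded, 2 trained) was analysed from deposited tables. Per the labels, cells were captured in 3′ droplets, and the submitters' processing notes name Cell Ranger 2.0.0, Seurat 2.2.1 and the mouse build mm10. The authors deposited raw counts of unique molecular identifiers (UMIs) per gene and cell, without normalization, and their cluster annotations. The authors also deposited the mitochondrial fraction of each cell, used only as a check, and a processed matrix that was not used. The 1123 barcodes without a cluster were left out, doublets had been removed by the authors, and no filter was added. Of 22501 neurons in the whole-bulb annotation, 21746 were in the authors' separate annotation of neurons. The other neurons were part of library totals and of counts over the whole-bulb annotation. They entered no level, axis ratio or condition test that used the separate neuronal clusters. Cluster numbers of some nonneuronal types differ between the deposited annotation and the study's own tables, and the deposited ones were used.

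Counts were summed per cluster and library and scaled to CPM over all genes. Conditions were compared with edgeR 4.0.16 (quasi-likelihood, TMM, filterByExpr) on all 6 libraries, with Benjamini-Hochberg adjustment over all genes tested in a cluster at 0.05, after a check on simulated data. DESeq2 1.42.0 (R 4.3.3), other scaling, filters, cells and libraries were alternatives. Named genes were, per class, the 4 of highest tau with at least 500 UMIs and the 3 with most UMIs, the 5 pairs of smallest p per comparison, and the 5 highest and 3 lowest ratios per axis. The other members given values (such as Kcna6, Kcnh7, Kcnj13, Kcnj16, Kcnk15 and Kcnmb1) and the promoters shown were chosen after their values were seen. Single values of 4 members, some of them named by this rule, are not reported here, but they are included in all counts and sums. The members, gene lists and tests were chosen with earlier results of these data known. Promoters came from RefSeq (GRCm38.p6). Counting error of clusters with few cells adds to the SD, and UMIs of free RNA were not removed.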

Additional observations from a re-analysis of the deposited data

Results flagged for a closer look

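In the highest cluster of a named gene, 3 genes had 1 library set apart from the other 5. Chance alone sets apart a library in about 1 of 20 such groups, and 39 were examined. Kcnb2 in n07-GC-2 was highest in naris-occluded replicate 1 at 355 CPM, where the others lay between 284 and 307 CPM. Kcnd2 in n09-GC-3 was highest in trained replicate 1 at 1019 CPM, with the others between 482 and 624 CPM. Kcnt1 in n15-M/TC-1 was highest in naris-occluded replicate 2 at 566 CPM, with the others between 32.1 and 139 CPM, in a cluster of 90 cells.

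For 2 members, the ratios to immature neurons had opposite signs on the 2 axes in every library. Both ratios share the n04 cells, and the difference was not tested. Kcnc1 had a log2 ratio to n04 of -0.43 on axis A and 0.62 on axis B. Kcnn2 had -0.61 on axis A and 0.96 on axis B.

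The 1123 barcodes without a cluster, which no comparison used, held 2209.5 CPM of members in sum, where annotated cells held 1601 CPM.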

How the results depend on the processing

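Counts of members higher than n04 kept within 1.5 times their value under all alternatives except 1: with 20 CPM added, 17 members were higher on axis A. The count lower on axis A became 3 with 1 CPM added, 4 at a 1.5-fold threshold and 2 without mitochondrial and ribosomal protein genes, and that on axis B became 0 when the clusters' CPM were averaged. With a highest cluster in all 6 libraries required, 8 members had a neuronal one. Leaving out 1 library at a time, added after seeing the data, gave 44 to 48 members highest in a neuronal cluster, 26 to 29 higher on axis A, 32 to 34 on axis B and 1 lower on each.

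In the condition comparisons, leaving out a library gave 0 to 1, 0 to 3 and 0 to 1 member calls for naris occluded against control, trained against control and trained against naris occluded, where the library left alone in its group was taken to vary like the others. Calls over all genes moved as well, from 108 to between 136 and 337, from 161 to between 79 and 665, and from 308 to between 299 and 1244. The highest were 337 without naris-occluded replicate 2, and 665 and 1244 without trained replicate 2, the settings in which Kcnj3 in n17-M/TC-3, and Kcnn2 in Astro1 in both comparisons, passed. Without the filter on low counts, Kcnn2 and Kcnip3 in Astro1 passed against control (2 calls) and Kcnn2 against naris occluded (1 call), of 2245 member pairs each, where 462 and 722 of all 505460 pairs passed. With replicate number as a replicate block, 0, 1 and 1 members passed, Kcnn2 in Astro1 each time, with adjusted p of 0.0448 and 0.0472 by edgeR. Over its 11 alternatives, the adjusted p of Kcnn2 against control ran from 0.00557 to 1.00. The block raised calls over all genes from 108 to 176, 161 to 248 and 308 to 516. Correlations of same-numbered libraries' deviations had medians over clusters of 0.0983, 0.0980 and 0.0644, and they passed 0.1 in 16, 17 and 7 of 34 clusters. In Astro1 they were 0.166, 0.136 and 0.115, each over 0.1. The main test used no block. Of 156 alternative values of the 15 named pairs, 147 stayed on the same side of the threshold, 9 newly passed, and none changed direction. The cause of these moves was not tested. Clusters with few cells limit what could be detected: n08, n15, n16, n18, Mural1 and RBCs were not tested, and 11 members passed the filter on low counts in no cluster.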

Other observations

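Several partner genes were highest in myelinating oligodendrocytes, which also had high Kcna1, Kcna6 and Kcnk13. Slc12a2, a sodium, potassium and chloride importer, stood at 527 ± 34.8 CPM (SD, n = 6 libraries) in MyOligo and at 220.2 ± 52.1 CPM in Mural2. Cntn2, an adhesion protein of the zone beside the node where Shaker-type channels sit, was at 312 ± 22.4 CPM in MyOligo, above every other cluster in 6 of 6 libraries. Hcn2, a channel for the current that opens on hyperpolarization, was at 168 ± 59.3 CPM in MyOligo and 116 ± 51.4 CPM in n18-EPL-IN. These genes were chosen after their values were seen.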
